A study of Mus musculus with 4 samples.

Results

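The genes described here control the entry of pyruvate into mitochondria and its conversion to acetyl-CoA. They are the pyruvate dehydrogenase kinases Pdk1, Pdk2, Pdk3 and Pdk4, the pyruvate dehydrogenase phosphatases Pdp1 and Pdp2, the E1 subunits Pdha1 and Pdhb of the pyruvate dehydrogenase complex, and the mitochondrial pyruvate carrier subunits Mpc1 and Mpc2. These 10 genes were chosen by symbol, not by any measured value, and each had 1 row among the 32285 mouse genes of all 4 matrices.

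The carrier, a pair of Mpc1 and Mpc2 proteins in the inner mitochondrial membrane, lets pyruvate made by glycolysis or from lactate reach the matrix. There the pyruvate dehydrogenase complex turns it into acetyl-CoA. The kinases phosphorylate the E1 alpha subunit and switch the complex off, and the phosphatases remove the phosphate and switch it on again. In heart and skeletal muscle Pdk4 is known as the kinase that rises with fasting and fatty acid supply, in part through the nuclear receptor PPAR alpha. The heart is also known to turn from glucose and lactate towards fatty acids in the weeks after birth.

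Nuclei were taken from whole hearts of wild-type mice at postnatal day 12 and sequenced with the 10x Genomics 3′ chemistry. Control mice had a saline injection at postnatal day 7. YAP5SA mice were given AAV9-cTNT-YAP5SA at the same age, an adeno-associated virus. In it the promoter of cardiac troponin T, active in cardiomyocytes, drives YAP5SA, a form of the co-activator YAP that escapes inhibition by Hippo kinases. The mothers were on chow or a high-fat diet (HFD) for 5 days, which made 4 groups of 1 library each. Because the controls had no virus, effects of virus and of YAP5SA cannot be told apart. The number of hearts behind a library was not found in the sources used here. Diets were taken from the titles, and the treatment labels of 2 libraries name the other diet (HFD for YAP5SA on chow, chow for control on HFD). If those labels hold, vector and diet changed together in every comparison of YAP5SA with control.

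The libraries held 43.4 × 1e6 to 61.2 × 1e6 UMIs (unique molecular identifiers, which count captured RNA molecules). After filtering, 6048 to 10009 nuclei a library remained, with medians of 4166 to 5045 UMIs. Of these, 3536, 4774, 3006 and 5075 were cardiomyocyte-like in control on chow, YAP5SA on chow, the HFD control and YAP5SA on HFD. Every list of 4 values keeps this order. All of the 14 cardiomyocyte markers except Myl7, an atrial gene, had a higher CPM in these nuclei than in all others. Between libraries 136 barcodes were shared, at most 0.372% of the smaller library of any pair. YAP5SA on chow was the library of the other sex: Xist, which females express from their inactive X, stood at 5.99 CPM there and at 2474 to 2548 CPM in the others. Pdk3 and Pdha1 are X-linked. The clusters that held the cardiomyocyte-like nuclei also differed. Of them, 63.3% and 26.9% lay in clusters 5 and 6 in control on chow, and 39.7% and 52.1% did in control on HFD. Clusters 9, 27, 26 and 7 took 15.2%, 22.7%, 20.5% and 15.4% of those in YAP5SA on chow. In the other YAP5SA library they took 50.3%, 8.12%, 11.8% and 14.98%, and each drew at least 90% of its nuclei from the YAP5SA libraries.

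Levels are CPM, the UMIs of a gene per 1e6 UMIs in all nuclei of a class, and their brackets hold exact 95% Poisson intervals. A sum over nuclei cannot separate fewer expressing nuclei from less RNA per nucleus, so the share of nuclei with at least 1 UMI is given beside it. The one comparison with replicates set both control libraries against both YAP5SA libraries. It used edgeR's quasi-likelihood test over all genes with Benjamini-Hochberg adjustment and a threshold of 0.05. Its p-values measure the spread between these libraries, with diet as part of that spread. A fit without 1 library leaves 1 library in its arm, which is assumed to vary like the 2 of the other arm. Comparisons of 1 library with 1 library have no test, and their intervals cover counting error only.

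In cardiomyocyte-like nuclei, both carrier subunits and the E1 beta subunit fell with YAP5SA, with lower levels on either diet, and one kinase, the sparsely detected Pdk3, rose. Mpc1 fell by 1.43 on the log2 scale (SE 0.161, edgeR adjusted p = 0.00487), Mpc2 by 1.01 (SE 0.192, adjusted p = 0.0234) and Pdhb by 0.80 (SE 0.175, adjusted p = 0.0355), and Pdk3 rose by 1.63 (SE 0.306, adjusted p = 0.0231). Pdk4, the most abundant of the kinases, did not pass the test, and its level was set apart in 1 library, control on HFD. Of the 10 genes 3 fell, where 4.39% of the 16888 genes tested fell, and 1 rose, where 7.93% rose. The plot of levels by library shows all 10.

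**Figure D1:**
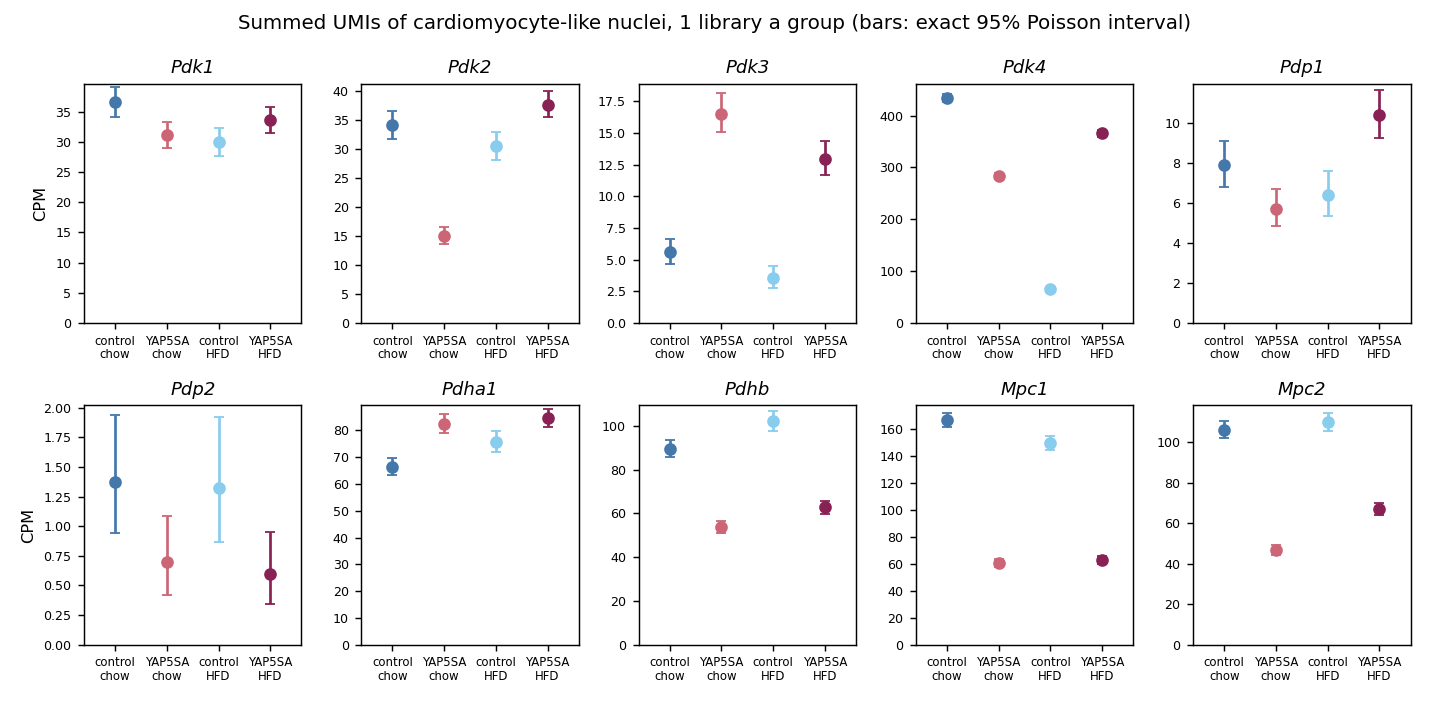
Level of each of the 10 genes in cardiomyocyte-like nuclei, as CPM of summed UMIs (vertical axis, starting at 0) for the 4 libraries, with exact 95% Poisson intervals for counting error. Mpc1 stands at 166 and 149 CPM in the control libraries and at 60.2 and 63.0 CPM in the YAP5SA libraries, and Pdk4 is low in control on HFD, at 65.1 CPM.

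The carrier was the clearest case. Mpc1 (chromosome 17, 8282904 to 8297661, plus strand, mm10) stood at 166 CPM (161 to 172), 60.2 CPM (57.4 to 63.2), 149 CPM (144 to 155) and 63.0 CPM (60.1 to 66.0). The control libraries were both high and the YAP5SA libraries both low, with no overlap. Nuclei with an Mpc1 UMI made up 57.0%, 25.95%, 53.7% and 26.7%. After every nucleus was thinned to 2000 UMIs, with shallower nuclei left out, the shares were 27.04%, 12.0%, 25.7% and 12.3%, with the same split at equal depth. The summed level of the 14 cardiomyocyte markers moved with it, at 49383, 31054, 51935 and 32209 CPM, as did those of the 8 endothelial markers, at 939, 495, 914 and 767 CPM, and of the 6 pericyte markers, at 441, 152, 407 and 222 CPM. So did the 7 lymphocyte markers, at 20.8, 15.1, 22.2 and 6.81 CPM, and the 5 adipocyte markers, at 21.1, 8.12, 18.5 and 9.0 CPM. Some listed genes are not confined to their type. Cd36, an endothelial marker here, stood at 475 CPM in all nuclei outside the endothelial-like class. Abcc9, a pericyte marker here, stood at 211 CPM outside the pericyte-like class. The part of these lists in the Mpc1 result was not tested. Mpc1 overlaps the gene 4930506C21Rik on the opposite strand, and the sources used here do not say whether the counting used strand.

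Mpc2 (chromosome 1, 165460637 to 165481214, plus strand), the partner of Mpc1 in the carrier, stood at 106 CPM (102 to 111), 46.9 CPM (44.3 to 49.5), 110 CPM (106 to 115) and 67.1 CPM (64.2 to 70.2). Both controls were again above both YAP5SA libraries, and YAP5SA on HFD was above YAP5SA on chow by more than the counting error. Nuclei with an Mpc2 UMI made up 44.5%, 20.6%, 45.7% and 27.8%, and 18.02%, 9.02%, 20.5% and 12.6% after thinning. Between 1 library and 1 library, Mpc1 was lower by a log2 fold of -1.47 (95% interval -1.55 to -1.38) on chow and -1.24 on HFD, and Mpc2 by -1.18 and -0.72. Without control on HFD the fall of Mpc2 was 0.96 with an edgeR adjusted p = 0.0542, which misses the threshold, while that of Mpc1 was 1.48 with an adjusted p = 0.00163.

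Pdhb (chromosome 14, 8165996 to 8173025, minus strand) encodes the E1 beta subunit. It stood at 89.4 CPM (85.6 to 93.3), 53.8 CPM (51.1 to 56.6), 102 CPM (97.8 to 107) and 62.7 CPM (59.8 to 65.7), again with the control libraries above both YAP5SA libraries. Pdha1 (chromosome X, 160122209 to 160138413, minus strand) encodes E1 alpha, the subunit that the kinases phosphorylate. It stood at 66.4, 82.5, 75.8 and 84.7 CPM, a log2 difference of 0.16 (SE 0.175, edgeR adjusted p = 0.604). By CPM, the subunits of the same E1 enzyme thus stood in opposite order between the control and YAP5SA libraries. The difference for Pdha1 did not pass the test, and its small fold on HFD turned negative when scaled by TMM factors. The call for Pdhb was the least stable of the calls: without control on HFD its log2 fold was -0.67 with an adjusted p = 0.225, and without control on chow it was -0.94 with an adjusted p = 0.0565. Pdha1 overlaps Map3k15 on the opposite strand.

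The promoters of the genes that fell together are printed to show what letters they share. Each window is 300 bases, from 250 bases before to 50 bases after the annotated start, 5′ to 3′ on the gene's strand, from RefSeq on GRCm38.p6. Capitals mark the CCAAT box, written CCAAT or, on the other strand, ATTGG, which 37.4% of the 32851 mouse promoters of the table hold.
Mpc1, chr17:8283537-8283836, plus strand: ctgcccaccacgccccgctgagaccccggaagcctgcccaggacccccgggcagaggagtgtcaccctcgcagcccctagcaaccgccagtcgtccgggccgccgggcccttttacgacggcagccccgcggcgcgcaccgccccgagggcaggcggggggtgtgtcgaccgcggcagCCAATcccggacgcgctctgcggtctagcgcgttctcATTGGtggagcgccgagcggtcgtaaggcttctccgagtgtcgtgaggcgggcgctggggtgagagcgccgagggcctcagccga
Mpc2, chr1:165461010-165461309, plus strand: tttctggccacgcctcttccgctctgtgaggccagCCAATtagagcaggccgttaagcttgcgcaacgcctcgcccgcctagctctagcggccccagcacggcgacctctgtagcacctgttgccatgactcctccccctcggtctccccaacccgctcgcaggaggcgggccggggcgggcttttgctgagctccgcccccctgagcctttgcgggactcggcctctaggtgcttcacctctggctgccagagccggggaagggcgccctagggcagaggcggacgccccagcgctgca
Pdhb, chr14:8172943-8173242, minus strand: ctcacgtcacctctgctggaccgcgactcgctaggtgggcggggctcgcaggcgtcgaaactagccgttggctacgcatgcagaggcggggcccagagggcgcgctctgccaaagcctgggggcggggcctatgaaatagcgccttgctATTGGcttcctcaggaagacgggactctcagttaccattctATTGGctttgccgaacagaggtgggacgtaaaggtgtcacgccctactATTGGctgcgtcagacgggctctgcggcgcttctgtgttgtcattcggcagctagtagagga
The Pdhb window holds the box at positions -100, -59 and -11 from the start, the Mpc1 window at -71 and -34, and the Mpc2 window at -214. Each window was also searched on both strands for the nuclear receptor half-site AGGTCA (16.3% of promoters), the longer estrogen-related receptor site TNAAGGTCA (1.28%), which contains AGGTCA at its end, and the TEAD site GGAATG (14.7%). TEAD proteins are the DNA-binding partners of YAP. The FoxO site TGTTTAC (3.65%) and the E-box CACGTG (7.15%) were searched too, and none of these 5 is in the windows printed for these genes. A second annotated Mpc1 start, with a window at chr17:8284204-8284503, has AGGTCA once and GGAATG at 2 places. That window has no CCAAT box. The box is not particular to the genes that fell, since windows of Pdk2, Pdk3, Pdk4 and Pdp2 also hold it. GGAATG is also in windows of Pdk2 and Pdp2. These matches describe the letters only. A window was at hand for 9 of the 10 genes.

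Among the kinases, Pdk4 (chromosome 6, 5483351 to 5496309, minus strand) had by far the highest level in cardiomyocyte-like nuclei. It stood at 434 CPM (426 to 443), 283 CPM (277 to 289), 65.1 CPM (61.7 to 68.7) and 366 CPM (359 to 373). Control on HFD was low and the other 3 libraries were high, so the control group spanned the YAP5SA group. Nuclei with a Pdk4 UMI made up 71.1%, 50.4%, 20.9% and 59.6%, and after thinning 47.7%, 32.2%, 9.13% and 40.9%. In fibroblast-like nuclei the shares were 6.64%, 2.98%, 2.53% and 4.39%, at median depths of 4088, 3646, 4234 and 3802 UMIs against 5795, 5001, 6008.5 and 4901 in cardiomyocyte-like nuclei. The share in the low library, 20.9%, was thus still above the 2.53% of its fibroblast-like nuclei, at a greater median depth. Whether the fibroblast-like share is background was not tested.

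The direction of the Pdk4 difference depended on the library it was set against. On chow, the YAP5SA library was below the control, with a log2 fold of -0.62 (95% interval -0.66 to -0.57). YAP5SA on HFD was above control on HFD, with a log2 fold of 2.49 (2.41 to 2.57). Over both diets the edgeR log2 fold was 0.32 (SE 0.713, adjusted p = 0.807). Without control on chow it was 2.19 with an adjusted p = 0.000205, and without control on HFD it was -0.47 with an adjusted p = 0.483. With 1 library a group, an effect of vector or diet on Pdk4 and a difference of the 1 library cannot be told apart.

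The Pdk4 promoter is printed because this gene, a known PPAR target, had the widest range across libraries of the 10. The box is at position -130 on the other strand, and none of the other 5 motifs is in this window.
Pdk4, chr6:5496229-5496528, minus strand: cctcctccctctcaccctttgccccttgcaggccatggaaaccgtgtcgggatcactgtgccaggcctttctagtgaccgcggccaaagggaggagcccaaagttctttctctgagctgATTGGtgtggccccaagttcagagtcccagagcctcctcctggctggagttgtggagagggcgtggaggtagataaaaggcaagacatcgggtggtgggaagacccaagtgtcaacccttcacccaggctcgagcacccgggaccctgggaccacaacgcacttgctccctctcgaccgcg

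Pdk3 (chromosome X, 93764607 to 93832201, minus strand), a kinase known mainly from testis, brain and kidney, was sparse in cardiomyocyte-like nuclei. It stood at 5.59 CPM (4.67 to 6.63, 130 UMIs), 16.5 CPM (15.04 to 18.1, 450 UMIs), 3.57 CPM (2.80 to 4.49, 73 UMIs) and 12.98 CPM (11.7 to 14.4, 372 UMIs). Both YAP5SA libraries were above both control libraries without overlap. Nuclei with a Pdk3 UMI made up 2.998%, 7.69%, 2.13% and 6.21%, and 0.90%, 2.90%, 0.64% and 2.28% after thinning. Summed levels of the 10 fibroblast markers in the same nuclei, 305, 258, 463 and 351 CPM, did not split by vector. Marker lists of 4 other types did split as Pdk3 did. The 6 Schwann markers summed to 182, 505, 176 and 438 CPM, with Sox10 at 0 in YAP5SA on chow and control on HFD and Kcna1 at 0 in both controls. The 5 atrial markers summed to 73.5, 414, 120 and 178 CPM, with Bmp10 at 0 in control on chow. The 6 endocardial markers summed to 31.2, 59.4, 37.4 and 52.1 CPM and the 6 epicardial ones to 12.7, 25.6, 11.2 and 18.1 CPM, with none at 0. The 8 macrophage markers, at 8.21, 14.7, 15.4 and 33.8 CPM, were highest in YAP5SA on HFD, with Fcgr1 at 0 in control on chow. The part of these in the Pdk3 level was not tested.

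The sex of YAP5SA on chow, the male library, moves with the X-linked Pdk3 on chow, and its part was not tested. The log2 fold of YAP5SA against control was 1.56 (95% interval 1.28 to 1.86) on chow and 1.86 (1.498 to 2.25) on HFD. Without YAP5SA on chow, with the other YAP5SA library alone in its arm, the edgeR log2 fold was 1.32 with an adjusted p = 0.0443. Without control on HFD it was 1.37 with an adjusted p = 0.0516.
Its promoter is printed as that of the kinase that rose, with the box at position -119 and none of the other 5 motifs.
Pdk3, chrX:93832101-93832400, minus strand: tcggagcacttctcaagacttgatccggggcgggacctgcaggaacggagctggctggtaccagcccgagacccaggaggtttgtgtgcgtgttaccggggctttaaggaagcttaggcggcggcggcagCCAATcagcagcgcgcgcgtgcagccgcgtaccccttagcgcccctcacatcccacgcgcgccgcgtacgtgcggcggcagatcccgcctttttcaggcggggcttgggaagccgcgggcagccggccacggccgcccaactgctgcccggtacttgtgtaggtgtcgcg

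Pdk1 (chromosome 2, 71873224 to 71903858, plus strand), known as a target of the hypoxia factor HIF-1, stood at 36.5, 31.1, 29.9 and 33.5 CPM. These 4 values lay close together, and the edgeR log2 fold was -0.11 (SE 0.177, adjusted p = 0.726). Pdk2 (chromosome 11, 95026258 to 95041354, minus strand), a kinase found in most tissues, stood at 34.1 CPM (31.8 to 36.6), 15.1 CPM (13.6 to 16.6), 30.5 CPM (28.2 to 33.0) and 37.7 CPM (35.5 to 40.0). Only YAP5SA on chow was low, and the log2 fold over both diets was -0.39 (SE 0.365, adjusted p = 0.523). Without YAP5SA on HFD it was -1.10 with an edgeR adjusted p = 0.0176. Pdk2 overlaps Gm11513 on the opposite strand.

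The phosphatases were sparse. Pdp1 (chromosome 4, 11958184 to 11966452, minus strand), the calcium-stimulated isoform known from muscle and heart, stood at 7.86, 5.70, 6.40 and 10.4 CPM. Its highest and lowest levels were both in YAP5SA libraries, and its log2 fold was 0.08 (SE 0.313, edgeR adjusted p = 0.894). Pdp2 (chromosome 8, 104591451 to 104599026, plus strand) had 32, 19, 27 and 17 UMIs in all, or 1.38, 0.70, 1.32 and 0.59 CPM. Its log2 fold of -1.13 (SE 0.430) did not pass the test, with an edgeR adjusted p = 0.140.

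**Figure D2:**
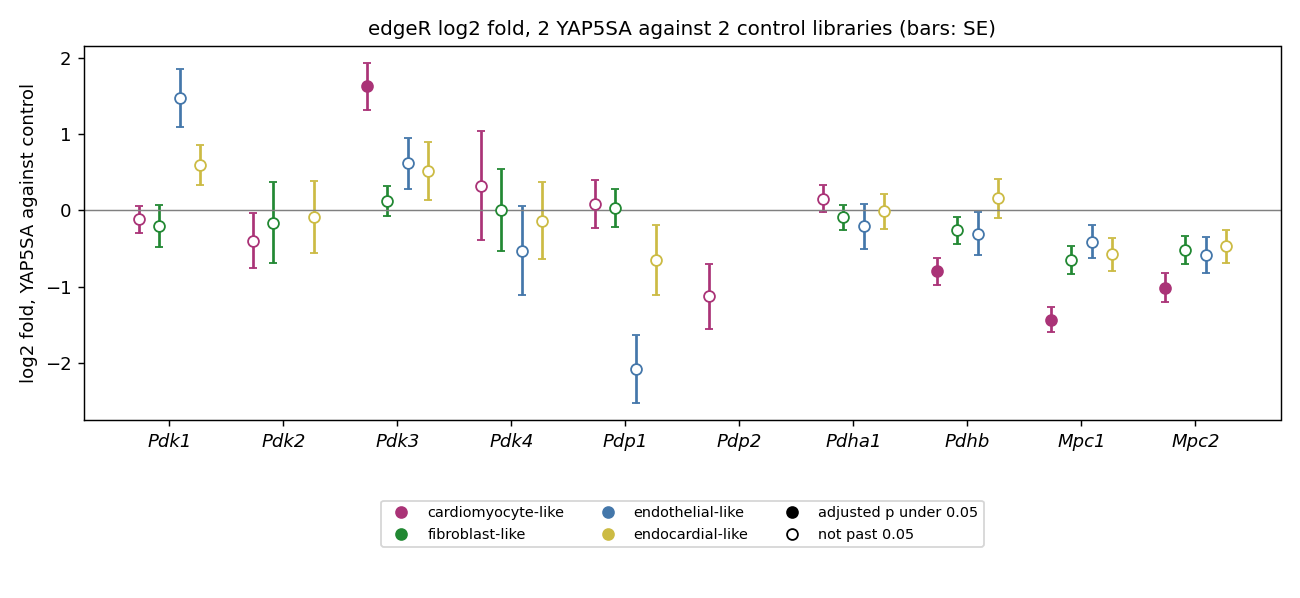
Log2 fold of YAP5SA against control for each of the 10 genes in 4 classes of nuclei, from edgeR's quasi-likelihood fit of 2 control and 2 YAP5SA libraries. Bars are standard errors derived from the test's F statistic, and filled points have an adjusted p under 0.05. Filled points are found in cardiomyocyte-like nuclei only, for Mpc1, Mpc2 and Pdhb below 0 and Pdk3 above 0.

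Set against gene length, the rank of the genes changed with the library. The scale, CPM per kilobase of the gene's span, assumes that counts grow with length. That was not tested, and the sources used here do not give the use of introns. On this scale Pdk4 was first in control on chow, YAP5SA on chow and YAP5SA on HFD at 33.5, 21.8 and 28.2. In control on HFD it stood at 5.03, below Pdhb at 14.5, Mpc1 at 10.1 and Mpc2 at 5.36. Pdk3 and Pdp2 were at the bottom, at 0.083 and 0.182 in control on chow. Of the UMIs of all 4 kinase genes, Pdk4 took 85.1%, 81.9%, 50.4% and 81.3%. Pdk1 took 7.16%, 8.99%, 23.2% and 7.45% and Pdk2 6.69%, 4.36%, 23.6% and 8.37%, so that control on HFD was the library where the kinases were most evenly mixed.

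Diet alone gave no call. In the edgeR fit with vector and diet as terms, which leaves 1 residual degree of freedom, none of the 10 genes passed for HFD against chow, where 0.0% of 16888 genes rose and 0.0% fell. At an unadjusted p under 0.05, 495 genes rose and 225 fell, and DESeq2 called 21 and 3. Pdk4 had a log2 diet difference of -1.21 (SE 0.646, unadjusted p = 0.103). Between 1 control and 1 control library, Pdk4 was lower on HFD by a log2 fold of -2.74 (95% interval -2.82 to -2.65), and between the YAP5SA libraries it was higher by 0.37 (0.33 to 0.41). The latter was smaller under other scalings, at 0.21 with TMM factors and 0.16 with DESeq2 size factors.

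Counted by a 2-fold rule among the 7 of 10 genes with a mean of at least 10 CPM, 3 were lower in YAP5SA on chow than in control on chow, namely Pdk2, Mpc1 and Mpc2, where 7.06% of 8470 genes were lower. None was higher, where 8.61% were. On HFD, Pdk4 was higher, where 10.8% of genes were, and Mpc1 lower, where 3.61% were. For HFD against chow, Pdk4 was lower in control, where 0.697% were, and none higher, where 1.42% were. In YAP5SA, Pdk2 was higher with a log2 fold of 1.32 (1.16 to 1.49), where 3.94% were, and none lower, where 1.06% were. The scaling sets part of these shares. The median log2 fold of all genes for YAP5SA on HFD was 0.13, and -0.06 with TMM factors and -0.12 with DESeq2 size factors. The higher and lower genes there, 917 and 306, became 692 and 490 or 648 and 551. For HFD against chow in YAP5SA, 334 and 90 became 220 and 153 or 197 and 175. The small folds on HFD of Pdk1 (0.16) and Pdha1 (0.16) turned to -0.02 and -0.03 with TMM factors.

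Within single clusters of cardiomyocyte-like nuclei, which were built from these same counts and therefore give a description with no test, the order of the libraries was mostly kept. In cluster 5 Mpc1 stood at 171, 86.3, 150 and 90.6 CPM, and in cluster 6 at 164, 87.8, 156 and 95.1 CPM. Pdk3 in cluster 5 stood at 4.75, 9.03, 2.42 and 8.34 CPM, from as few as 7 UMIs in YAP5SA on HFD, and in cluster 6 at 5.71, 11.7, 3.35 and 10.7 CPM. For Mpc1 and Pdk3 the YAP5SA libraries were thus on the same side of the controls in clusters 5 and 6 as in the whole class. The intervals of Pdk3 overlapped on chow in both clusters. They also overlapped on HFD in cluster 5, at 1.38 to 3.93 CPM in control and 3.35 to 17.2 CPM in YAP5SA, but not in cluster 6. Mpc2 stood at 111, 83.0, 106 and 88.2 CPM in cluster 5 and at 107, 71.1, 116 and 106 CPM in cluster 6. Its intervals on HFD overlapped in both clusters. For Pdhb the gap was narrower than in the whole class, at 94.5, 88.3, 105 and 69.1 CPM in cluster 5. Its intervals on chow overlapped there.

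Pdk4 differed most between clusters. In cluster 5 it stood at 432, 629, 51.7 and 492 CPM, so YAP5SA on chow was above control on chow, the reverse of their order in the whole class. Cluster 26, led by Cemip, a gene of hyaluronan breakdown, had no nucleus from a control library. There Pdk4 stood at 48.5 CPM in YAP5SA on chow and 35.5 CPM in YAP5SA on HFD. Mpc1 stood at 37.4 and 26.6 CPM and Pdk3 at 28.1 and 26.2 CPM. In YAP5SA on chow these were the lowest Mpc1 level and the highest Pdk3 level of the 8 clusters. Cluster 26 was also lowest in Myh6, a cardiac myosin, at 170 and 146 CPM, although 13 of 14 cardiomyocyte markers were detected. In cluster 4, the cycling nuclei, Pdk3 stood at 10.4, 21.5, 9.73 and 28.4 CPM and Mpc1 at 136, 43.9, 90.5 and 34.4 CPM.

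Some of these calls depended on the Cemip cluster. Without it, an alternative added after the data were seen, Mpc1 fell by 1.30 (edgeR adjusted p = 0.0136) and Mpc2 by 0.87 (adjusted p = 0.0484). Pdk3 at 1.24 (adjusted p = 0.0701) and Pdhb at -0.63 (adjusted p = 0.0873) no longer passed. Without all 4 clusters drawn mostly from YAP5SA libraries, the log2 folds were -1.35 for Mpc1 (adjusted p = 0.00373), -0.89 for Mpc2 (0.0121), -0.74 for Pdhb (0.0477) and 1.61 for Pdk3 (0.0125), all past the threshold. The clusters left were unevenly filled. Clusters 5, 6, 4 (cycling) and 17 (atrial) held 231, 149, 165 and 210 nuclei of YAP5SA on HFD. They held 1193, 1565, 103 and 95 of control on HFD. In YAP5SA on HFD, Pdk3 stood at 28.4 and 17.6 CPM in clusters 4 and 17, against 8.34 CPM in cluster 5. Mpc1 stood there at 34.4 and 51.9 CPM, against 90.6 CPM. The part of this mix in the folds was not tested.

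**Figure D3:**
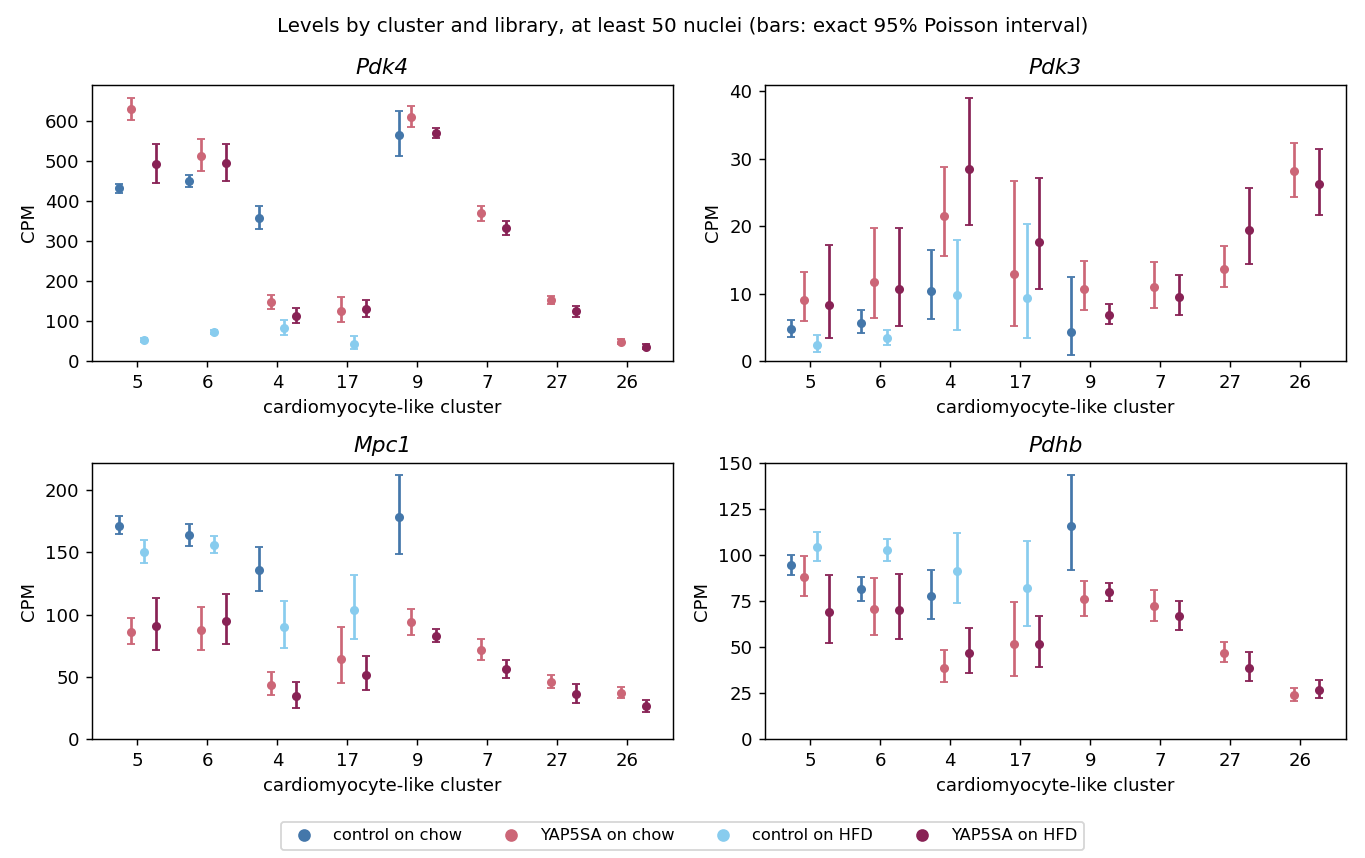
Level in CPM of Pdk4, Pdk3, Mpc1 and Pdhb in each cluster of cardiomyocyte-like nuclei (horizontal axis) by library, for clusters with at least 50 nuclei of that library. In clusters 5 and 6, shared by all libraries, Mpc1 is between 150 and 171 CPM in the control libraries and between 86.3 and 95.1 CPM in the YAP5SA libraries.

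Outside cardiomyocytes, RNA set free from broken cells can add to every class, and 3 sarcomere genes were taken as a measure of it. Ttn, Myh6 and Tnnt2 stood in fibroblast-like nuclei at 2.3% to 6.2% of their cardiomyocyte-like level. Pdk4 stood there at 20.4, 7.80, 5.87 and 18.5 CPM, or 4.7%, 2.8%, 9.0% and 5.0% of its cardiomyocyte-like level. It was within the range of the sarcomere genes in all libraries but control on HFD. Mpc1 at 27.1% to 62.0%, Mpc2 at 37.9% to 71.7%, Pdhb at 32.7% to 63.2% and Pdha1 at 40.7% to 49.5% were well above that range. The range depends on the genes taken. The nuclei outside the cardiomyocyte-like class include the unnamed clusters. Of those, cluster 16, with 534 nuclei, had 14 of 14 cardiomyocyte markers detected. In all nuclei outside the cardiomyocyte-like class, Tnni3 stood at 77.7 against 266 CPM within it, and Actc1 at 184 against 659 CPM. These are larger shares than those of the 3 sarcomere genes there, while Ryr2, at 1180 against 10436 CPM, was near Ttn. The part of free RNA in the levels was not tested. Pdk3 was higher in fibroblast-like than in cardiomyocyte-like nuclei in all 4 libraries, at 18.5, 24.7, 19.5 and 20.6 CPM, which is 149% to 548% of the cardiomyocyte-like level. Of the kinase UMIs in fibroblast-like nuclei, Pdk3 took 29.5%, 48.7%, 45.6% and 34.8%, and Pdk4 32.5%, 15.4%, 13.7% and 31.1%.

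**Figure D4:**
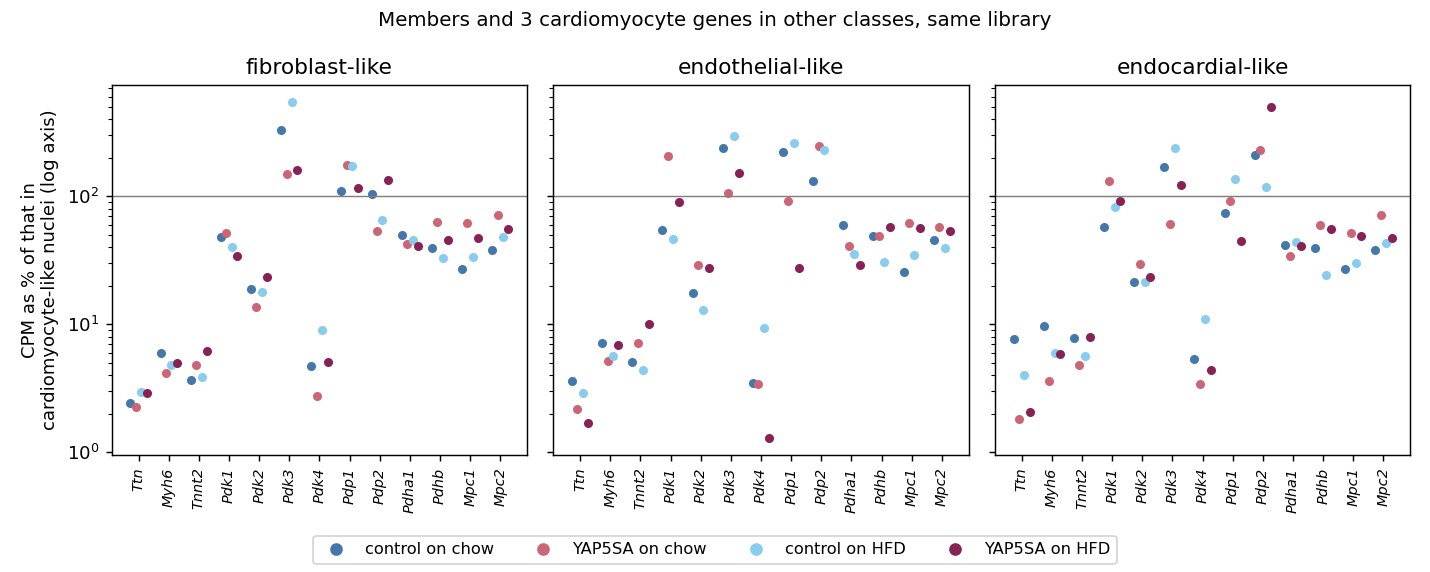
Level of the 10 genes and of Ttn, Myh6 and Tnnt2 in fibroblast-like, endothelial-like and endocardial-like nuclei, as a percent of the cardiomyocyte-like level of the same library (log axis), 1 point a library. In fibroblast-like nuclei the 3 sarcomere genes lie between 2.3% and 6.2%, Pdk4 between 2.8% and 9.0%, and Pdk3 above 100% in all libraries.

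In fibroblast-like nuclei 9 of the 10 genes could be tested, all but Pdp2, and none rose or fell, where 6.97% of 15388 genes rose and 5.63% fell. Mpc1 stood at 45.0 CPM (39.3 to 51.4), 37.3 CPM (32.3 to 42.8), 50.4 CPM (46.2 to 54.9) and 29.6 CPM (26.4 to 33.2), both controls above both YAP5SA libraries. Its log2 fold of -0.64 (SE 0.184) had an edgeR adjusted p = 0.0541. It passed without control on chow, at -0.73 (adjusted p = 0.0495), and without YAP5SA on chow, at -0.84 (adjusted p = 0.00690), fits in which 1 arm is a single library with no spread of its own. Mpc2 differed by -0.52 (SE 0.182, adjusted p = 0.102) and Pdk3 by 0.12 (SE 0.198, adjusted p = 0.736).

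The difference between the classes was tested by itself, as an interaction of class and vector with library as a block. The effect on Pdk3 was larger in cardiomyocyte-like than in fibroblast-like nuclei by 1.53 on the log2 scale (SE 0.274, edgeR adjusted p = 0.00861). That on Mpc1 was more negative, by -0.76 (SE 0.192, adjusted p = 0.0344). So 1 of the 10 genes differed upward, where 8.08% of 17919 genes did, and 1 downward, where 4.46% did. Pdhb (-0.52, adjusted p = 0.142) and Mpc2 (-0.49, adjusted p = 0.138) did not pass. Without the Cemip cluster the difference for Mpc1 was -0.61 with an adjusted p = 0.102.

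In endothelial-like nuclei 8 of the 10 genes were tested and none rose, where 0.417% of genes did, or fell, where 0.657% did. Pdk1 had the largest difference upward: it stood at 19.8 CPM (13.7 to 27.9), 64.3 CPM (50.5 to 80.7), 14.0 CPM (9.55 to 19.7) and 30.2 CPM (20.6 to 42.6). Both YAP5SA libraries were above both controls, and the edgeR fold was 1.47 on the log2 scale (SE 0.384, adjusted p = 0.126). Pdp1 went the other way with 29, 6, 38 and 3 UMIs, or 17.4, 5.21, 16.6 and 2.83 CPM, a difference of -2.08 (SE 0.443, adjusted p = 0.0696). With diet as a term both passed, Pdk1 at 1.39 (adjusted p = 0.0181) and Pdp1 at -2.10 (adjusted p = 0.0350). These sums hold 371 to 598 nuclei a library.

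In endocardial-like nuclei 9 genes were tested and none rose, where 0.921% of genes did, or fell, where 1.32% did. Pdk1 stood at 20.98, 40.9, 24.6 and 30.6 CPM, again with both YAP5SA libraries above the controls, at a log2 fold of 0.60 (SE 0.260, edgeR adjusted p = 0.332). Mpc1 stood at 44.8, 30.9, 45.2 and 31.0 CPM, a log2 difference of -0.57 (SE 0.212, adjusted p = 0.239).

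The neighbours of these genes in the pathway were counted from 3 lists in the cardiomyocyte-like test. Of 19 genes of pyruvate supply and the rest of the complex, 4 fell and none rose, where 4.39% and 7.93% of all genes did. Among them were Sirt3, a mitochondrial deacetylase (-1.01, edgeR adjusted p = 0.0363), Dlat, the E2 subunit (-0.75, adjusted p = 0.0329), and Dld, the E3 subunit (-0.74, adjusted p = 0.0398). Without control on chow 0 of the list fell, without control on HFD 2, without the Cemip cluster 1, with the diet term 2 and with whole libraries 0. Dlat and Dld were not past the threshold in any of these fits, nor was Pdhb except with the diet term. At the upper end stood the lactate exporter Slc16a3 (0.93, adjusted p = 0.148) and the lipoyl transferase Lipt1 (0.86, adjusted p = 0.255), neither past the threshold. The median log2 fold of the list was -0.33, beside -0.25 for the 10 genes and 0.04 for all genes tested.

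Of 16 transcription factors and cofactors known to act on kinase genes, 5 fell and none rose, where 4.39% and 7.93% of all genes did, with a median of -0.57. Without the Cemip cluster 3 fell, without control on HFD 3 and with whole libraries 1. Beside Ppara, these were Esrrg (-1.24, edgeR adjusted p = 0.0128), Esrra (-1.13, adjusted p = 0.00938), Ppargc1b (-0.91, adjusted p = 0.0260) and Esrrb (-0.81, adjusted p = 0.0258). The Esrr genes encode the estrogen-related receptors and Ppargc1b a co-activator they share with PPAR alpha. Esrra stood at 140, 65.4, 139 and 69.2 CPM, both controls above both YAP5SA libraries. Foxo1, at 0.32 (adjusted p = 0.279), had the highest log2 fold of the list.

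Among 14 genes known as PPAR targets, 3 fell (Cpt1b, Plin5 and Fabp3) and none rose, where 4.39% and 7.93% of all genes did, with a median of -0.57. Without control on chow the median was 0.49, with 1 that rose and 1 that fell. Without the Cemip cluster, without YAP5SA on chow and with the diet term 1 fell, and with whole libraries 0. Angptl4, an inhibitor of lipoprotein lipase, stood at 36.9, 16.4, 5.28 and 30.6 CPM. Ucp3, a mitochondrial uncoupling protein, stood at 72.9, 40.2, 26.9 and 86.5 CPM. Both were lowest in control on HFD, as Pdk4 was. Ppara itself stood at 299, 91.1, 449 and 104 CPM and was highest in that library. By the 2-fold rule, of the 11 targets with a mean of at least 10 CPM, 5 were lower and none higher in YAP5SA on chow than in control on chow, where 7.06% and 8.61% of all genes were. On HFD 5 were higher and 1 lower, where 10.8% and 3.61% were. In control, 5 were lower and none higher on HFD than on chow, where 0.697% and 1.42% were. The comparisons share libraries, and control on HFD enters both that and the YAP5SA comparison on HFD.

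**Figure D5:**
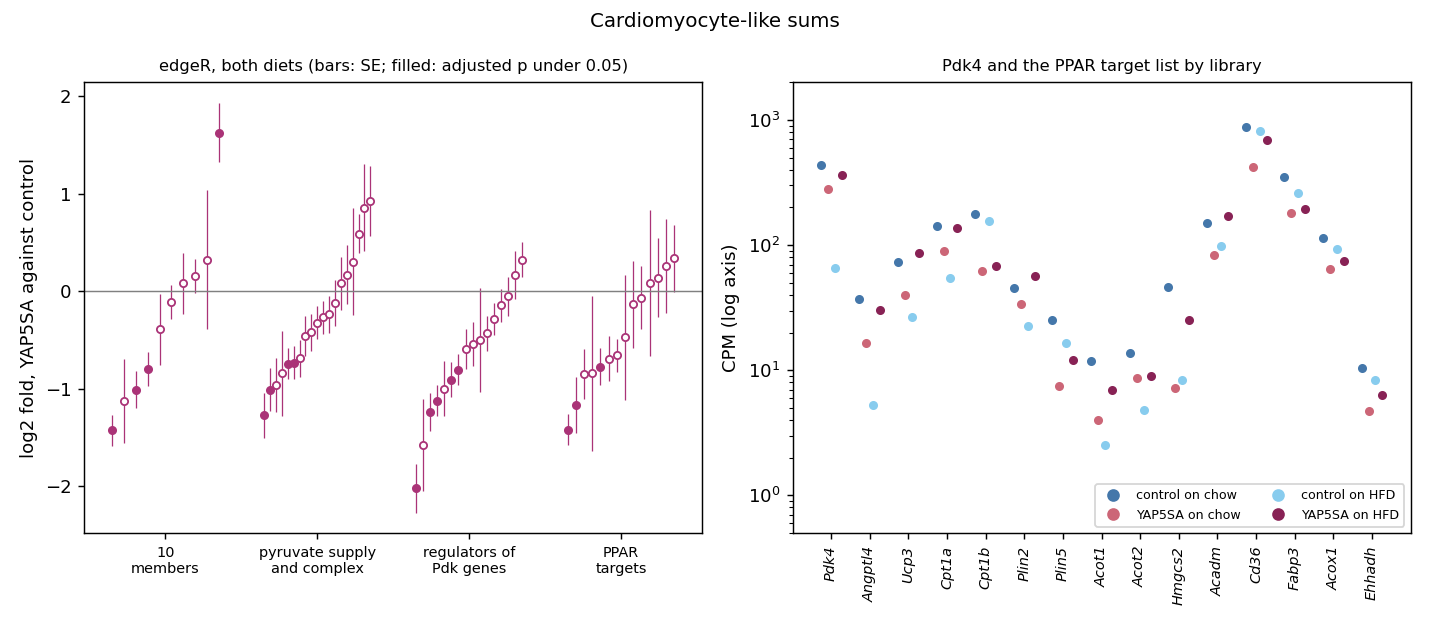
Left, edgeR log2 folds of YAP5SA against control in cardiomyocyte-like nuclei for the 10 genes and the 3 lists, 1 point a gene. Right, CPM of Pdk4 and the 14 PPAR targets in the 4 libraries on a log axis, for each gene 1 point a library. Pdk4, Angptl4 and Ucp3 are lowest in control on HFD, at 65.1, 5.28 and 26.9 CPM.

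Over the 16 sums of 4 classes and 4 libraries, the genes whose log2(CPM + 1) followed that of Pdk4 most closely among 10146 genes were Scd4 (Pearson r = 0.978), Hsdl2 (0.964), Usp20 (0.952), Ucp3 (0.951) and Rbfox1 (0.944). Among those closest to Mpc1 were Kcnip2 (0.9749), Hopx (0.964), Ogdh (0.956) and Clec16a (0.953), and Mpc1 and Mpc2 had r = 0.942. The points share libraries and class composition, most of the range lies between cardiomyocyte-like and other nuclei, and the values are a description.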

How the data were processed

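The authors aligned reads to mm10 with Cell Ranger 7.1.0, per the submitters' processing notes. The deposited matrices hold raw UMI counts per gene and nucleus, with no normalization. Sources used here do not give the use of introns or strand.

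Nuclei with under 500 genes or over 5% mitochondrial UMIs were removed. Doublets were called per library with Scrublet (scanpy 1.11.5), and 4.51% to 6.93% were removed. Where its automatic threshold marked under 0.5%, as in control on chow and YAP5SA on chow, the top 0.8% per 1000 nuclei were removed instead. All libraries were clustered together (Leiden, igraph 0.11.9, resolution 1, seed 0), and clusters were named from marker lists. The limits for naming followed a look at the data. Clusters left unnamed held 329, 456, 711 and 598 nuclei.

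UMIs were summed per library and class. Sums were tested with edgeR 4.0.16 (R 4.3.3, TMM, filterByExpr) and, as an alternative, DESeq2 1.42.0, in classes of at least 200 nuclei in every library. For edgeR, each SE is the absolute log2 fold divided by the square root of the test's F statistic. The edgeR script was tested on simulated data, with the same spread for all genes and no differences of diet, sex or cluster mix. It therefore cannot show how far the calls hold in these libraries. Folds of 1 library against 1 used a prior of 0.5 counts and an exact conditional binomial 95% interval, and shares carry exact Clopper-Pearson intervals (scipy 1.17.1). These intervals cover counting error only. Alternatives changed the nucleus filter, doublets, clustering, clusters included, scaling, count filter, diet term and libraries.

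All 10 genes are named in every comparison. From the 3 lists, the extremes and the genes past the threshold could be named. Values of 2 genes that this and the likeness rule named are not reported here. The genes, lists and tests were chosen with earlier results of these data known.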

Additional observations from a re-analysis of the deposited data

Results flagged for a closer look

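The effect of YAP5SA differed between cardiomyocyte-like and fibroblast-like nuclei for 2 of the 10 genes, by the edgeR test of the difference itself. For Mpc1 the difference was -0.76 on the log2 scale, and for Pdk3 it was 1.53. Of 17919 genes, 8.08% differed upward and 4.46% downward. Without the Cemip cluster that of Mpc1 was -0.61 with an edgeR adjusted p = 0.102.

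For 4 genes the comparison of YAP5SA with control in cardiomyocyte-like nuclei had opposite signs on the 2 diets, with 1 library in each group, so the difference between diets was not tested. The log2 folds on chow and on HFD were -0.62 and 2.49 for Pdk4, -1.18 and 0.30 for Pdk2, -0.46 and 0.69 for Pdp1, and -0.23 and 0.16 for Pdk1. Under TMM factors that of Pdk1 on HFD was -0.02, so its 2 signs were then the same. The sign for Pdk4 on chow differed between single clusters. In control and YAP5SA on chow, Pdk4 stood at 432 and 629 CPM in cluster 5 and at 449 and 513 CPM in cluster 6. It stood at 565 and 609 CPM in cluster 9, with overlapping intervals, and at 358 and 147 CPM in cluster 4. For all 4 genes the diets rest on the titles, which the treatment labels of 2 libraries contradict.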

How the results depend on the processing

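In cardiomyocyte-like nuclei 1 of the 10 genes rose and 3 fell in the main test, among 2081 genes called. Without the Cemip cluster 0 rose and 888 genes were called. With whole libraries summed, without regard to class, 0 rose, 0 fell and 403 genes were called. Without the filter on low counts 3299 genes were called. Leaving out each library in turn, 0 to 2 rose and 1 to 4 fell. Scaling by total UMIs alone gave 1372 genes up and 452 down in place of 1339 and 742, and in fibroblast-like nuclei 1457 and 629 in place of 1072 and 867. In fibroblast-like nuclei 0 of the genes fell and 1939 genes were called. With the stricter nucleus filter 1 fell, without the count filter 2 fell and 3167 genes were called, and with each library left out 0 to 1 fell and 1155 to 2919 genes were called. In endothelial-like nuclei, with 116 genes called, the stricter, looser and finer settings called 0 genes each, no count filter 767 and the diet term 317, and leaving out libraries 58 to 731. Of the 10 genes there, 1 rose and 1 fell without the count filter and with the diet term, and 0 to 1 rose and 0 to 1 fell with a library left out. In endocardial-like nuclei, with 275 called, the stricter filter called 0, no doublet removal 156, no count filter 710, the diet term 137, and leaving out libraries 322 to 519.

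The difference between classes, with 2248 genes called, gave 1473 without clusters mostly of YAP5SA libraries and 1281 without the Cemip cluster, where 0 of the 10 differed downward. Without the count filter 2 differed upward. For diet, with 0 genes called, there were 65 without clusters mostly of YAP5SA libraries, 1 of them among the 10, namely Pdk4 (-1.72, edgeR adjusted p = 0.0275). DESeq2 size factors gave 1, no count filter 103 and the DESeq2 test 24. For YAP5SA against control on chow, 1327 genes were 2-fold apart, and 850, 871 and 830 without clusters mostly of YAP5SA libraries, without the Cemip cluster and with whole libraries. Without clusters mostly of YAP5SA libraries 1 of the 10 was higher and 1 lower, and without the Cemip cluster 1 was lower. On HFD, whole libraries gave 768 genes in place of 1223 and 0 of the 10 lower, and 2 were higher without clusters mostly of YAP5SA libraries. For HFD against chow in YAP5SA none was then higher, 0 in place of 1. The cause of these shifts was not tested.

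No called value of the 10 genes turned its sign. Of their log2 folds in the tests under alternatives, 614 kept their direction and side of the threshold, 15 newly passed, 11 no longer passed, and 59 that were not called turned sign. Each group held 1 library and the labels number no replicates, so the only pairing used was by titled diet. The fit with diet as a term sets the vectors against each other within each titled diet. In it, 1 of the 10 genes rose and 3 fell in cardiomyocyte-like nuclei. The limits are 4 libraries, unknown numbers of hearts, conflicting diet labels, and 17 to 32 UMIs for Pdp2 in a library.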
